A study of Mus musculus with 7 samples.

Results

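The netrin system was examined in mouse ovarian stroma through 9 genes, the UNC5 receptors Unc5a, Unc5b, Unc5c and Unc5d, the receptors Dcc and Neo1, and the secreted netrins Ntn1, Ntn3 and Ntn4. These 9 were taken from the 52230 genes in the files, with Unc5d selected on its measured counts in the KO and WT libraries and the others joined to it by family. The KO and WT values of all 9 are therefore given below as a description, with a standard error and no p-value, and counts of calls among them stand only beside the share of all genes called. Total RNA was taken from granulosa cell-depleted ovaries, which the study calls stroma, and mRNA libraries were sequenced.

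WT mice (PGR +/+, 4 libraries numbered 1 to 4) were compared with KO mice (PGR -/-, 3 libraries numbered 2 to 4) of the PRKO line, strain label Pgrtm1Bwo, a null allele of the progesterone receptor gene carried by every cell of the animal and not by the ovary alone. All females were 21 to 27 days old, although the design text gives a shorter age range. Both groups received 5 IU of eCG (labelled PMSG) and, 44 h later, 5 IU of hCG, and ovaries were taken 8 h after hCG, before the time of follicle rupture. Each library pooled tissue from 3 mice, so that variation between single animals could not be seen. The ovary was punctured to empty the follicles and the remainder was used whole, so that the tissue held stroma, theca, vessels and other cells together. In such bulk tissue, fewer cells of a type and less RNA per cell cannot be told apart.

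Netrins are secreted proteins related to laminins that were first known for steering growing axons. DCC and neogenin, the product of Neo1, are related receptors that mediate attraction and adhesion, whereas the UNC5 receptors mediate repulsion, alone or together with DCC. UNC5 receptors and DCC are also known as dependence receptors, which can start cell death when no ligand is bound. Outside the nervous system, UNC5B is best known on vascular endothelium, netrin-4 in basement membranes, and UNC5D as a receptor that also binds FLRT proteins on neighboring cells.

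The extracellular part of the UNC5 receptors carries immunoglobulin domains followed by thrombospondin type 1 repeats. Exon 6 of each gene, which had 168 bases in all 4, encodes the first of these repeats and is absent from some annotated forms of Unc5a and Unc5d. It is printed here because the estimated share of transcripts that held it differed between Unc5a and Unc5d. The sequences are on the coding strand of GRCm39, and capitals mark the in-frame TGG codons for tryptophan, a residue that is typical of this repeat.
Unc5a exon 6, chr13:55145006-55145173, + strand: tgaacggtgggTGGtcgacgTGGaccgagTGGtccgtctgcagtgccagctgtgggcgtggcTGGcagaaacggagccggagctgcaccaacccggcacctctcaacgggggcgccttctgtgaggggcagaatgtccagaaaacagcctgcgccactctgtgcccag
Unc5b exon 6, chr10:60613947-60614114, - strand: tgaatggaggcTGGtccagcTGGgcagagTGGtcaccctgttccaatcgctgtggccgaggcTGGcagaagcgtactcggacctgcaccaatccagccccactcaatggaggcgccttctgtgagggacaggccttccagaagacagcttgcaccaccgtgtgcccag
Unc5c exon 6, chr3:141474205-141474372, + strand: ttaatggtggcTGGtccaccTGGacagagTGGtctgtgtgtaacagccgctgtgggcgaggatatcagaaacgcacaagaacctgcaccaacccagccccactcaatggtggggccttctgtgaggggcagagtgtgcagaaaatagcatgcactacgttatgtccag
Unc5d exon 6, chr8:29250753-29250920, - strand: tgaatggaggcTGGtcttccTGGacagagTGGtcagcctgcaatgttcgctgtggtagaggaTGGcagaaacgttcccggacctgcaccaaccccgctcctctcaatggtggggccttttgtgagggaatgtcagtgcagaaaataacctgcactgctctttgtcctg
Identity between the 6 pairs of exons ranged from 75.0% to 77.4%. Unc5a, Unc5b and Unc5d had 4 of these codons each and Unc5c had 3.

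Libraries held 47.4 M to 63.4 M estimated reads, and none of the 7 was set aside. Pgr, the targeted gene on chromosome 9, had 19.5, 31.0, 21.5 and 16.9 CPM (counts scaled to library size) in WT libraries 1 to 4 and 6.13, 6.52 and 7.56 CPM in KO libraries 2 to 4. The KO libraries were all below the WT libraries, with a log2 fold change of -1.72 (SE 0.20) and an adjusted p of 0.0544 in edgeR, the quasi-likelihood test used here. Reads on Pgr were thus reduced in KO but not absent. A gene was called when its adjusted p was at most 0.05 and its absolute log2 fold change at least 0.5, the thresholds of the study, and edgeR called 2 of 19233 genes tested (0.0104%). DESeq2, the study's tool, called 144 of 18609 (0.774%), among them Pgr.

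Unc5d showed the largest difference of the 9. Its level was 1.71, 3.00, 2.06 and 1.88 CPM in WT libraries 1 to 4 and 5.92, 4.90 and 5.49 CPM in KO libraries 2 to 4. The groups did not overlap, and WT library 2, the highest of its group, stayed well under the lowest KO library. The WT mean was 2.16 CPM (SD 0.577, n = 4) and the KO mean 5.44 CPM (SD 0.515, n = 3), a ratio of 2.51, and the fitted log2 fold change was 1.33 (SE 0.19). Only 23 of the 19233 genes tested (0.1196%) had a higher log2 fold change, a position that follows from the selection. The count was low in absolute terms, at 89 to 151 reads per WT library and 235 to 341 reads per KO library. The gene lies on chromosome 8 (29136745 to 29709664, minus strand, GRCm39), and a lncRNA on the opposite strand, Gm26795, overlaps its 3' part by 21074 bases but had only 0.222 CPM in WT and 0.159 CPM in KO on average.

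Unc5a, an UNC5 receptor best known from spinal and sympathetic neurons, was the other gene whose KO libraries all lay above the WT libraries. It had 9.19, 7.21, 6.33 and 7.75 CPM in WT libraries 1 to 4 and 14.2, 12.7 and 11.4 CPM in KO libraries 2 to 4. WT library 1 was the highest of its group and KO library 4 the lowest of its own, and a gap remained between them. The WT mean was 7.62 CPM (SD 1.196, n = 4) and the KO mean 12.7 CPM (SD 1.40, n = 3). The log2 fold change was 0.74 (SE 0.13), and 228 of 19233 genes (1.19%) had a higher one. The gene spans 55096518 to 55153833 on chromosome 13 and its last 36 bases overlap Hk3 on the opposite strand. Hk3, a hexokinase gene, had 1.36 CPM in both groups.

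**Figure D1:**
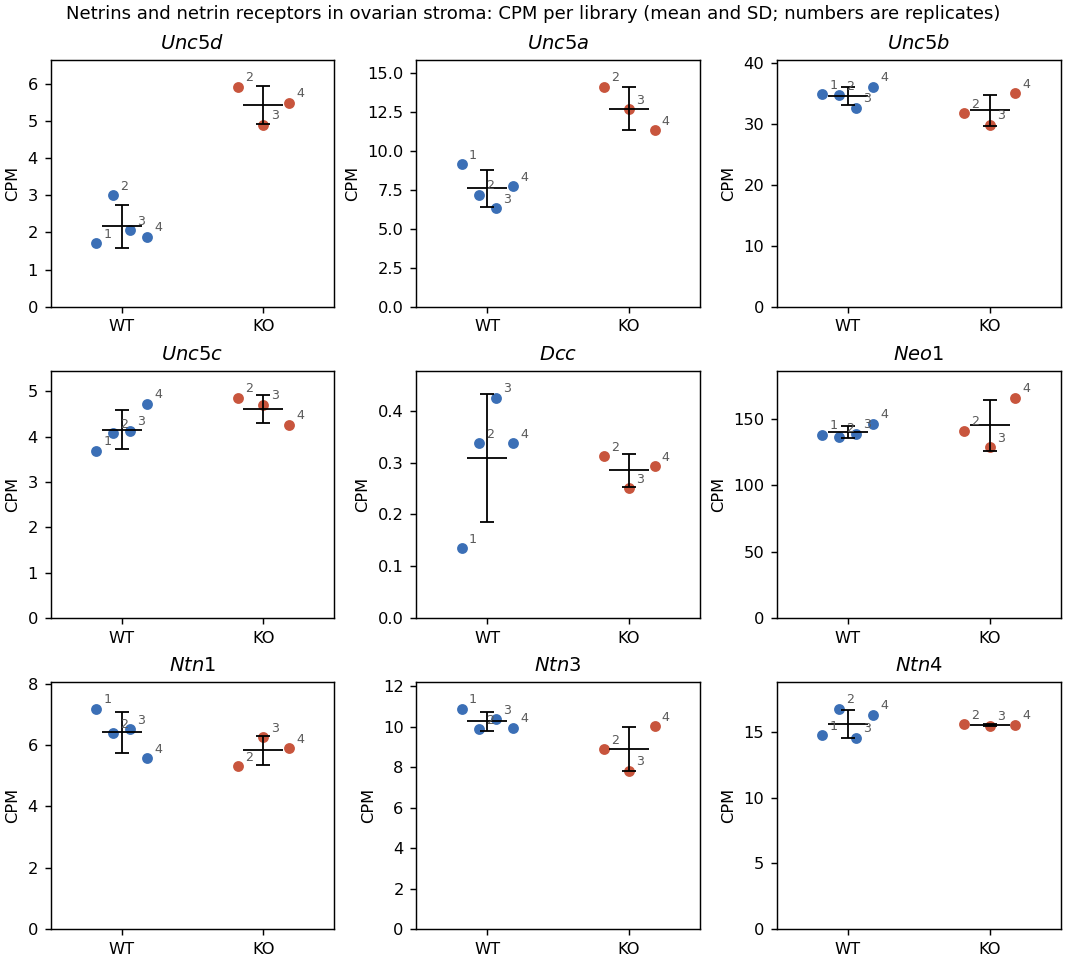
Level of the 9 genes in CPM (vertical axes, each from 0) for the 4 WT libraries (blue) and 3 KO libraries (red), with replicate numbers beside the points and the mean and SD in black. The KO points of Unc5d and Unc5a lie above all WT points, and in the other 7 genes the groups overlap.

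Unc5b, the UNC5 receptor of blood vessels, was the highest of the 4 in every library. It had 34.9, 34.8, 32.7 and 36.1 CPM in WT libraries 1 to 4 and 31.7, 29.9 and 35.0 CPM in KO libraries 2 to 4. The ranges overlapped, with KO library 4 inside the WT range and the other KO libraries below it, and the log2 fold change was -0.10 (SE 0.07). Unc5c, a receptor known from cerebellar and spinal axons, had 3.69, 4.07, 4.13 and 4.73 CPM in WT and 4.86, 4.71 and 4.26 CPM in KO. Its groups overlapped as well, and the log2 fold change of 0.15 was close to its SE of 0.12.

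Dcc, the receptor that gives netrin its attractive action, was near the limit of what these libraries could show. It had 7, 17, 24 and 21 reads in WT libraries 1 to 4 and 18, 12 and 17 reads in KO libraries 2 to 4, which is 0.135 to 0.426 CPM in WT and 0.250 to 0.313 CPM in KO. The KO values lay within the WT range, and the log2 fold change of -0.12 had an SE of 0.36. At this depth, even a difference well above that SE could have been missed. Neo1, whose product neogenin also binds repulsive guidance molecules, had 138, 136, 139 and 147 CPM in WT and 141, 129 and 166 CPM in KO. Its KO libraries 3 and 4 lay below and above the whole WT range, so that the SD was 4.51 CPM in WT (n = 4) and 19.1 CPM in KO (n = 3) and the log2 fold change was 0.06 (SE 0.08). Neo1 lies on the same chromosome as Pgr, 49.8 Mb away.

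None of the 3 netrin genes separated the genotypes. Ntn1, which encodes the best studied ligand of DCC and UNC5 receptors, had 7.19, 6.38, 6.51 and 5.58 CPM in WT libraries 1 to 4 and 5.32, 6.25 and 5.90 CPM in KO libraries 2 to 4. The highest values were in WT, but WT library 4 was below 2 of the 3 KO libraries, and the log2 fold change was -0.14 (SE 0.12).

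Ntn3, a second ligand of the same receptors, had 10.9, 9.88, 10.4 and 9.95 CPM in WT and 8.89, 7.84 and 10.02 CPM in KO. Its log2 fold change was -0.20 (SE 0.10). KO library 4 lay inside the WT range and the other KO libraries below it. The 3' part of Ntn3 overlaps Tbc1d24 on the same strand by 1794 bases, and Tbc1d24 had a higher level, 24.6 CPM in WT and 24.5 CPM in KO, so that some reads of Ntn3 could belong to its neighbor. Ntn4, whose product binds laminin and disturbs its networks, was the most even of the 9, with 14.8, 16.8, 14.6 and 16.3 CPM in WT and 15.6, 15.5 and 15.6 CPM in KO. All KO libraries fell within the WT range and the log2 fold change was -0.01 (SE 0.07).

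DESeq2 called 2 of the 9 genes, Unc5a and Unc5d, beside its 0.774% of all genes, and edgeR called 0 of 9 beside its 0.0104%. Every KO library was above every WT library in 2 of the 9 and in 755 of 19233 genes (3.93%), and below in 0 of the 9 and in 985 (5.12%). The median log2 fold change of the 9 was -0.01, and that of all genes tested was 0.00. Because Unc5d entered by this same contrast, nothing is read from these counts.

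Levels were compared between genes in TPM, the deposited unit that corrects for transcript length and library size. Neo1 was the highest at 37.0 ± 5.18 TPM (SD over 7 libraries), followed by Unc5b at 8.82 ± 0.7505 TPM, Ntn4 at 6.69 ± 0.535 TPM, Unc5a at 4.08 ± 1.29 TPM and Ntn3 at 3.90 ± 0.653 TPM. Ntn1 followed at 1.66 ± 0.135 TPM, Unc5c at 0.875 ± 0.139 TPM, Unc5d at 0.769 ± 0.435 TPM and Dcc at 0.0439 ± 0.0138 TPM. The receptor gene with the highest transcript level was thus Neo1, and the netrin gene with the highest was Ntn4.

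In 6 of the 8 pairs of neighbors in this order, the higher gene was higher in 7 of 7 libraries, which gave p = 0.0156 in a two-sided exact sign-flip permutation test, the smallest value that 7 libraries allow, and 0.0208 after adjustment over the 8 pairs. The pairs and their direction were taken from the same 7 libraries, and Unc5d was selected on its counts in them. These p-values therefore describe how even each step was across the libraries and do not test an order set beforehand. The step from Neo1 down to Unc5b was 4.17-fold, and that from Unc5b to Ntn4, the smallest of the 6, was 1.32-fold. The last step, from Unc5d to Dcc, was 13.0-fold. That last ratio depended on the pseudocount, with a mean log2 ratio of 3.70 at 0.01 TPM and 0.72 at 1 TPM. It also joined libraries that differed, since Unc5d and Dcc had 0.454 and 0.0449 TPM in WT and 1.19 and 0.0424 TPM in KO. The same holds for the step from Ntn4 to Unc5a, which had 6.62 and 3.07 TPM in WT and 6.78 and 5.43 TPM in KO. The lowest Ntn4 library, at 5.79 TPM, was only slightly above the highest Unc5a library, at 5.66 TPM. The other 2 pairs did not pass the test over the 7 libraries. Unc5a was above Ntn3 in 4 of 7 libraries (mean log2 ratio 0.02, SD 0.60, adjusted exact p = 0.953), and Unc5c was above Unc5d in 5 of 7 (mean log2 ratio 0.37, SD 0.76, adjusted exact p = 0.268).

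**Figure D2:**
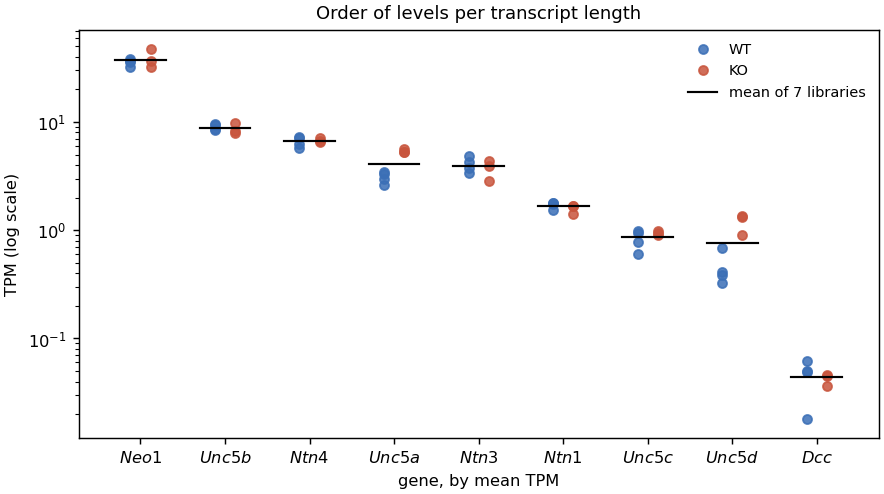
TPM on a log axis for the 9 genes, ordered by their mean over 7 libraries (black line), with WT libraries in blue and KO libraries in red. Neo1 lies above all other genes and Dcc below them in every library, while the points of Unc5a and Ntn3, and those of Unc5c and Unc5d, share a range.

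In both of these pairs the libraries of the genotypes did not follow 1 order, and both hold a gene that was higher in the KO libraries. Unc5a had 3.42, 2.99, 2.59 and 3.29 TPM in WT libraries 1 to 4, where Ntn3 had 3.35, 4.83, 4.24 and 3.79 TPM. In KO libraries 2 to 4, Unc5a had 5.66, 5.32 and 5.32 TPM and Ntn3 4.33, 2.86 and 3.92 TPM. Unc5a was thus above Ntn3 in 1 of 4 WT libraries and in 3 of 3 KO libraries. Unc5d had 0.322, 0.691, 0.387 and 0.415 TPM in WT libraries 1 to 4, below Unc5c in the same library at 0.603, 0.777, 0.974 and 0.943 TPM. In KO libraries 2 to 4, Unc5d had 1.33, 0.895 and 1.35 TPM and Unc5c 0.898, 0.934 and 0.991 TPM. Unc5d therefore exceeded Unc5c in KO libraries 2 and 4 and in no WT library.

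The make-up of the UNC5 receptor transcripts was described by adding the TPM of the 4 genes. The sum was 12.7, 13.7, 12.6 and 14.2 TPM in WT libraries 1 to 4 and 16.1, 15.01 and 17.5 TPM in KO libraries 2 to 4, so that the KO libraries were all higher. Unc5b made up 65.8% to 68.7% of the sum in WT and 51.0% to 56.2% in KO. Unc5a and Unc5d together made up 29.5%, 26.7%, 23.6% and 26.04% in WT and 43.5%, 41.4% and 38.1% in KO. Unc5d alone remained a minor component, at 2.54% to 5.03% in WT and 5.96% to 8.25% in KO, and most of the shift in share was in Unc5a (20.6% to 26.9% in WT, 30.4% to 35.4% in KO). These shares rest on the values by which Unc5d was selected and describe the same difference on another scale. The summed TPM of the 3 netrins overlapped between groups, at 10.9 to 13.9 in WT and 11.2 to 12.7 in KO.

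**Figure D3:**
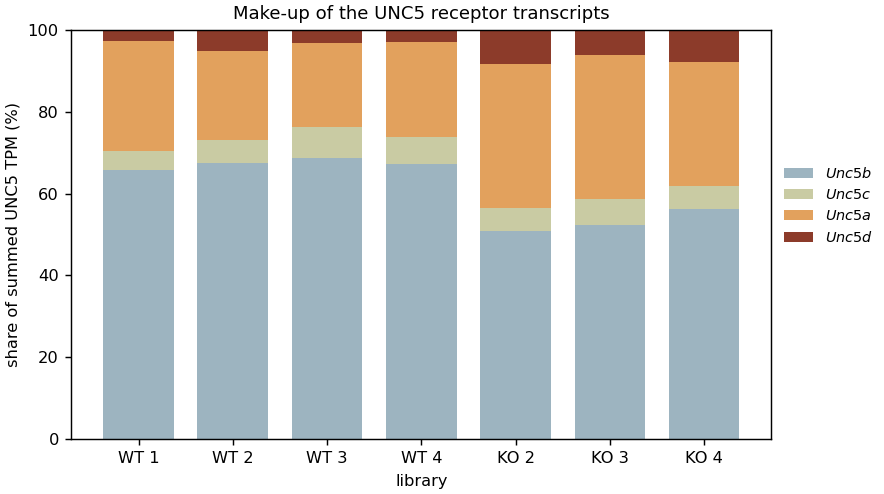
Share of the summed TPM of the 4 UNC5 receptor genes (vertical axis, percent) in each of the 7 libraries (horizontal axis). The joint share of Unc5a and Unc5d, the upper 2 segments, is 23.6% to 29.5% in the WT libraries and 38.1% to 43.5% in the KO libraries.

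The share of transcripts with the exon 6 printed above was taken from the TPM of transcripts that reach both sides of it. For Unc5b and Unc5c, GENCODE annotates 0 transcripts that skip it, so that their share of 100% is set by the annotation and was not measured. For Unc5a, 1.41%, 4.99%, 1.92% and 3.96% held it in WT libraries 1 to 4 and 2.48%, 11.9% and 5.06% in KO libraries 2 to 4. The form that skips it, Unc5a-202, made up 84.5% to 98.6% of the TPM of the gene. By Salmon's estimate, the Unc5a transcript of this tissue was therefore mostly one that encodes a receptor without the first thrombospondin repeat. The 2 main forms differ by this exon of 168 bases, and reads across its junctions were not counted here.

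For Unc5d, 70.0%, 59.6%, 89.3% and 78.0% held exon 6 in WT and 58.8%, 84.8% and 58.2% in KO. The group means were 74.2% ± 12.6 (SD, n = 4) and 67.2% ± 15.2 (SD, n = 3), and the ranges overlapped. In Unc5a the means were 3.07% ± 1.69 (SD, n = 4) and 6.49% ± 4.88 (SD, n = 3), also with overlap, and KO library 3 alone was above 6%. Salmon had few reads to divide between the forms of Unc5d, and its own uncertainty was not used here for either gene. Even so, the lowest estimated share of exon 6 in Unc5d was higher than the highest in Unc5a. The annotated forms of Unc5d differ by much more than this exon, however. Unc5d-201, which holds it, had a mean effective length (the length open to reads) of 9027 bases, and Unc5d-202, which skips it, of 2888 bases. The Unc5d share therefore also depends on reads outside exon 6 and does not measure that exon alone.

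**Figure D4:**
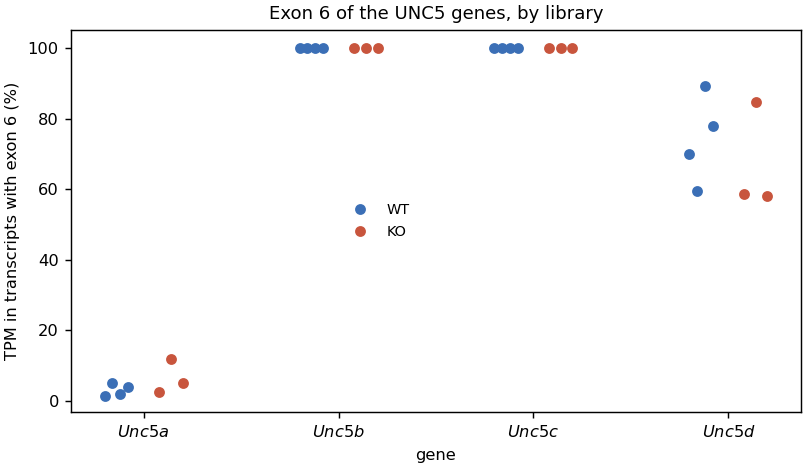
Percent of TPM in transcripts with exon 6 (vertical axis), out of the transcripts that reach both sides of it, for the 4 UNC5 genes in WT (blue) and KO (red) libraries. All points of Unc5b and Unc5c are at 100% because no form without the exon is annotated, those of Unc5a are at 1.41% to 11.9%, and those of Unc5d are at 58.2% to 89.3% with both genotypes mixed.

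Among the other genes, Ntn4-201 made up 100% of Ntn4 and Dcc-202 100% of Dcc in each library, and Ntn1-201 made up 97.3% to 100% of Ntn1. Neo1 was divided between Neo1-202 at 48.8% to 56.8% and Neo1-201 at 34.2% to 45.9%. In the coding sequence, Neo1-201 holds a 33-base exon that Neo1-202 lacks, and one of its other exons is 224 bases long in place of 176. The 2 forms also differ outside the coding sequence, with mean effective lengths of 7186 and 5221 bases. Ntn3 was spread over more forms, with the coding form Ntn3-201 at 53.3% to 86.7%, Ntn3-203, which retains an intron, at 5.16% to 35.01% and Ntn3-204 at 0% to 38.4%.

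Promoter sequence was searched for the half-site bound by the progesterone receptor and related steroid receptors, AGAACA or its reverse complement TGTTCT. RefSeq promoters of GRCm38.p6, from 250 bases before to 50 after the start, were at hand for 6 of the 9 genes, all but Unc5d, Dcc and Ntn1. The half-site was in 0 of these 6 windows and in 19.0% of 32851 promoters. The search says nothing of sites outside these windows.

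The rest of the netrin system was read from a list of 23 partners, which holds further netrins, co-receptors and other ligands of UNC5, DCC and neogenin. This list, like those of downstream genes and of other guidance genes below, was chosen with earlier results of these data known. Of 21 partners tested (all but Ntn5 and Hjv, which had too few reads), 0 were called by edgeR, DESeq2 or limma-voom. Over all genes edgeR called 0.0104% and DESeq2 0.774%, so that 0 calls in a list of this size say little. An unadjusted p under 0.05 was found for 2 (9.52%, beside 1720 of 19233 genes or 8.94% of all). On the log2 scale, 9 were higher and 12 lower in KO, with a median of -0.04. The 2 with a low unadjusted p were paralogs with fold changes of opposite sign, and both encode repulsive guidance molecules that bind neogenin and act as BMP co-receptors. Rgmb had 43.6, 38.2, 41.2 and 35.8 CPM in WT and 55.2, 45.5 and 47.7 CPM in KO, all KO libraries above WT (log2 fold change 0.32, SE 0.09, edgeR adjusted p = 0.333). Rgma had 38.95, 30.8, 33.5 and 30.6 CPM in WT and 29.9, 27.2 and 25.6 CPM in KO, all KO libraries below WT but the nearest only slightly so (log2 fold change -0.28, SE 0.10, edgeR adjusted p = 0.427). Neither passed the adjusted threshold.

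Genes of known binding partners of UNC5D had higher mean TPM than Unc5d itself, which had 0.454 TPM in WT and 1.19 TPM in KO. Flrt2, an adhesion protein and ligand of UNC5D, had 19.0 TPM in WT and 15.9 TPM in KO on average (log2 fold change -0.30, SE 0.14, edgeR adjusted p = 0.569), and the groups overlapped. Gpc3, a glypican that binds UNC5 receptors, had 61.8 TPM in WT and 57.9 TPM in KO. Flrt3, a related ligand, had 3.00 TPM in WT and 2.49 TPM in KO (log2 fold change -0.32, SE 0.19, edgeR adjusted p = 0.659). Lrrc4c, a receptor of netrin-G1, was below Unc5d, at 0.215 TPM in WT and 0.326 TPM in KO (log2 fold change 0.57, SE 0.27, edgeR adjusted p = 0.573). The integrin subunit Itgb1 was the highest of the list at 390 TPM in WT.

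Of 24 genes for proteins that act downstream of DCC and UNC5 receptors, 24 were tested and 0 were called by edgeR, DESeq2 or limma-voom. The share of all genes called was 0.0104% in edgeR and 0.774% in DESeq2. Unadjusted p-values under 0.05 were found for 4 (16.7%, beside 8.94% of all genes), all lower in KO. In total 7 were higher and 17 lower, with a median log2 fold change of -0.04, and the changes were small. Trim9, a ubiquitin ligase that binds DCC, had 14.2 CPM in WT (SD 2.37, n = 4) against 11.1 CPM in KO (SD 0.235, n = 3), a log2 fold change of -0.35 (SE 0.13, edgeR adjusted p = 0.468). Pitpna, a phosphatidylinositol transfer protein that binds DCC and neogenin, had a log2 fold change of -0.18 (SE 0.07, edgeR adjusted p = 0.452). Ptpn11, a phosphatase recruited by UNC5 receptors, had -0.17 (SE 0.07, edgeR adjusted p = 0.514) and Trio, a Rac activator downstream of DCC, -0.14 (SE 0.06, edgeR adjusted p = 0.550). Pick1, which binds the UNC5A tail, was next in the list at 0.16 (SE 0.07, edgeR adjusted p = 0.573).

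A list of 39 genes of other guidance families (Slit and Robo, semaphorins and plexins, ephrins and Eph receptors) was set beside the netrin system. All 39 were tested, and 0 were called by edgeR or limma-voom and 1, Slit2, by DESeq2, beside 0.0104% of all genes in edgeR and 0.774% in DESeq2. Unadjusted p-values under 0.05 were found for 6 (15.4%, beside 8.94% of all genes), with 4 higher and 2 lower in KO, and the median log2 fold change was -0.02 with 18 higher and 21 lower. Slit2, a secreted repellent of the Robo receptors, had 56.1, 77.5, 58.0 and 74.2 CPM in WT and 99.9, 94.2 and 92.8 CPM in KO. Its KO libraries were all above WT (log2 fold change 0.53, SE 0.12, edgeR adjusted p = 0.237). Efnb2, an ephrin of arteries, had 59.5, 69.4, 56.8 and 63.4 CPM in WT and 48.1, 49.2 and 50.9 CPM in KO, all below WT (log2 fold change -0.33, SE 0.07, edgeR adjusted p = 0.237). Its DESeq2 adjusted p was 0.022, but its fold change was under the threshold for a call. Epha5 (0.36, SE 0.13, edgeR adjusted p = 0.441), Efna4 (0.23, SE 0.09, edgeR adjusted p = 0.490) and Plxna3 (0.20, SE 0.08, edgeR adjusted p = 0.508) had the next lowest p-values, with their log2 fold changes in parentheses. All KO libraries were above WT in 4 of the 39 genes (3.93% of all genes) and below in 1 (5.12% of all genes).

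**Figure D5:**
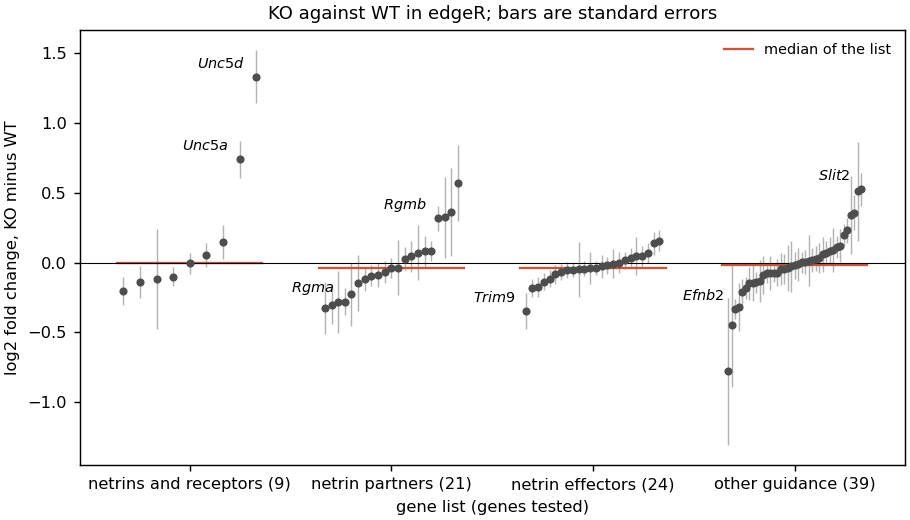
Log2 fold change of KO over WT in edgeR (vertical axis) with its standard error for the 9 netrin and receptor genes and for the tested genes of the 3 other lists, each sorted from low to high, with the median of each list in red. Unc5d at 1.33 and Unc5a at 0.74 are the highest points shown, and the medians of the 4 lists lie between -0.04 and -0.01.

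Marker genes of the tissue and of other cells were summed per library to set beside these levels. Stroma fibroblast markers were high in both groups (7569 to 11480 CPM in WT, 8137 to 8693 CPM in KO), so that the defining markers of the labelled tissue were present. Of the 7, 1, Tcf21, had an unadjusted p under 0.05, lower (log2 fold change -0.39, SE 0.09, edgeR adjusted p = 0.251). The DESeq2 adjusted p of Tcf21 was 0.0191, but its fold change was under the threshold for a call. Theca markers summed to 10700 to 13670 CPM in WT and 9210 to 10470 CPM in KO, without overlap. Cyp11a1 was the largest part of this sum, at 6182 CPM in WT and 5446 CPM in KO on average. Taken singly, only 1 of the 6, Star, had all KO libraries below WT (5.12% of all genes), and Cyp17a1 and Insl3 overlapped between groups. All 6 had a lower mean in KO, with a median log2 fold change of -0.43, and 1 of 6 had an unadjusted p under 0.05. Over all genes tested that share was 8.94%, and edgeR called 0 of the markers of any list (0.0104% of all genes). Granulosa markers remained at 1934 to 3202 CPM in WT and 2485 to 3098 CPM in KO, with 0 of 7 genes at an unadjusted p under 0.05. The sum of 7 smooth muscle and pericyte markers was 1914 to 2520 CPM in WT and 1450 to 1945 CPM in KO. All 7 had a lower mean in KO, with a median log2 fold change of -0.34. Of the 7, 5 had an unadjusted p under 0.05, all lower, of which DESeq2 called Cnn1 and Des. Blood endothelium markers, which mark the cells where Unc5b is best known, were at 833 to 980 CPM in WT and 814 to 853 CPM in KO, with 2 of 8 at an unadjusted p under 0.05, both lower. Of 5 lymphatic markers 3 were lower by that measure, whereas Prox1 was slightly higher in KO (log2 fold change 0.085, SE 0.16) and Ccl21a overlapped between groups. The sum of the 5 was 200 to 233 CPM in WT, above that of 169 to 190 CPM in KO. Pdpn was the largest part of this sum, at 96.3 CPM in WT and 72.9 CPM in KO on average. All KO libraries were below WT in 2 of the 5 (5.12% of all genes). Oocyte markers were at 289 to 369 CPM in WT and 323 to 477 CPM in KO, with 3 of 7 at an unadjusted p under 0.05, all higher. All 7 oocyte markers had a higher mean in KO, with a median log2 fold change of 0.28.

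Netrin receptors are known mostly from neurons, and nerve markers were therefore read as well. The 6 neuron and glia markers tested summed to 35.3 to 46.5 CPM in WT and 40.01 to 48.9 CPM in KO, with overlap. Of these 6, 5 were higher in KO and 1, Snap25, was lower, with a median log2 fold change of 0.43. An unadjusted p under 0.05 was found for 3 (8.94% of all genes), with both signs, and DESeq2 called Th and Snap25. Th, the enzyme that starts catecholamine synthesis, and Tubb3, a neuronal tubulin, had log2 fold changes of 0.63 (SE 0.16, edgeR adjusted p = 0.312) and 0.44 (SE 0.11, edgeR adjusted p = 0.280). Tubb3 had a DESeq2 adjusted p of 0.029 with a fold change under the threshold for a call. Snap25, a synaptic vesicle fusion protein, had -1.04 (SE 0.27, edgeR adjusted p = 0.314). Surface epithelium (8 genes, 1 at an unadjusted p under 0.05, lower), leukocyte (7 genes, 0), oviduct (4 genes, 0), adipocyte (2 tested, 0) and red cell markers (5 genes, 0) were read in the same way. All 8 surface epithelium markers had a lower mean in KO (median log2 fold change -0.49), but their sum overlapped, at 41.0 to 81.7 CPM in WT and 29.4 to 47.9 CPM in KO. All 5 red cell markers had a higher mean in KO (median log2 fold change 0.20). The part of these cell types in the values of Unc5d and Unc5a was not tested.

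The genes whose log2 CPM followed Unc5d most closely over the 7 libraries were Gm41031, a lncRNA (Pearson r = 0.985), Pld2, a phospholipase D (0.979), Camta1, a transcription activator (0.977), Phospho1, a phosphatase of bone mineralization (0.974), and H2-T23, a nonclassical MHC gene (0.968). In all, 20 genes had an r over 0.95. Part of such an r comes from the gap between the genotypes, and after the group means were removed it was 0.926, 0.878, 0.895, 0.729 and 0.805 in the same order. Their differences were mostly smaller than that of Unc5d, with a log2 fold change of 0.21 for Camta1, 0.23 for Pld2, 0.32 for Phospho1, 0.36 for H2-T23 and 1.39 for Gm41031, which had less than 1 CPM in both groups. These values are given as a description over 7 libraries.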

How the data were processed

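Granulosa cell-depleted ovary was profiled in 4 WT and 3 KO libraries of paired-end 100 bp reads (Illumina TruSeq Stranded mRNA). The authors deposited Salmon expected counts per transcript, made against GENCODE release M26 on GRCm39, and TPM, in which the deposited reads are corrected for transcript length and depth. The Salmon version and strand setting are not given in the sources used here. Here, 137570 of 139225 transcripts (98.8%, with 99.4% of reads) were matched to GENCODE M39 genes by identifier, and counts were summed per gene and rounded.

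KO was tested against WT with edgeR 4.0.16 in R 4.3.3 (two-sided quasi-likelihood F test, TMM factors, filterByExpr), and p-values were adjusted by Benjamini–Hochberg over the 19233 genes tested. SE is the absolute log2 fold change over the square root of F. CPM used TMM factors. DESeq2 1.42.0 and limma-voom (limma 3.58.1) were alternatives. Level order was tested on log2(TPM + 0.01) by an exact sign-flip permutation test (scipy 1.17.1). The code was tested on simulated data. Pools were of separate mice, and p-values measure the spread between pools.

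The 9 genes and the gene lists were chosen with earlier results of these data known. The naming rule took the 9 genes, Pgr, up to 5 genes of lowest unadjusted p in each of 3 lists, and the 5 genes most like Unc5d. Itgb1 and Gpc3 were named after their values were seen, as were the single cell type markers, Hk3, Tbc1d24 and Gm26795.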

Additional observations from a re-analysis of the deposited data

How the results depend on the processing

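The number of genes called was the least stable value. It was 2 in edgeR, 2 in limma-voom, 144 in DESeq2, 36 without a filter on low counts, 6 with at least 10 counts in every library, and 1 to 4 when 1 library was left out, with 1 call without WT replicate 3 or KO replicate 2 and 4 calls without WT replicate 4. Calls among the other guidance genes were 1 (Slit2) in DESeq2 and 0 in the other settings, and those among partners and effectors were 0 in all. The log2 fold change of Unc5d stayed between 1.25 and 1.53 over 14 alternatives and that of Unc5a between 0.66 and 0.85, with the same range when 1 library was left out. The sign changed in some settings for Dcc (-0.35 to 0.08), Neo1 (-0.05 to 0.14) and Ntn4 (-0.04 to 0.03). In the order of levels, 6 of 8 pairs passed in each alternative.

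KO and WT libraries share the numbers 2 to 4 but come from different mice. The correlations of their deviations were 0.023, 0.156 and 0.126. Replicates 3 and 4 of both groups correlated best with their own number, whereas replicate 2 of both groups correlated best with number 4. The numbers were not taken as a pairing, a question that these correlations do not settle. With the replicate block, 26 genes were called, against 2 without it, and the log2 fold change was 1.25 for Unc5d and 0.84 for Unc5a. Depth limits Dcc most, at 7 to 24 reads per library.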
